A study of Mus musculus with 9 samples.

Results

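Chemokines are small secreted proteins that bind receptors on leukocytes and steer where those cells migrate and settle. In the small intestine, enterocytes make CCL25, which attracts lymphocytes that carry the receptor CCR9, and epithelia make CCL28, which attracts plasma cells. Other members come from macrophages, dendritic cells and T cells or are induced by interferon. The transcripts of 10 such genes (Ccl25, Ccl28, Ccl20, Ccl5, Ccl6, Ccl8, Cxcl9, Cxcl10, Cxcl13 and Cxcl16) were taken by gene symbol from a count table of 54532 genes, and all 10 were found. Of these, 9 passed the filter on low counts, and Ccl8 did not.

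The libraries were poly(A) RNA of duodenum from male C57BL/6 mice kept on chow for 3 months: 5 libraries of mice with a mutation in Pla2g12b (mutant) and 4 of age-matched WT mice. Pla2g12b encodes a secreted phospholipase A2 relative without catalytic activity, which acts in loading lipoproteins with lipid. The allele carried by the mutants and the ages of the mice are not stated in the sample labels. The duodenal identity markers Pdx1, Gata4, Cdx2 and Onecut2 summed to 401 to 502 CPM in mutants and 460 to 473 CPM in WT, where CPM are reads scaled to a common library size. That sum is mostly Cdx2 and Gata4. Pdx1, a transcription factor gene of the proximal duodenum, held 12.6, 2.58, 2.01, 29.8 and 32.4 CPM in mutants 1 to 5, and 16.7, 16.3, 47.4 and 45.1 CPM in WT 1 to 4. Mutants 2 and 3 were the lowest, and the fold change of -0.98 (SE 0.82) was not called.

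Total counts were 16245982 to 17959658 in mutants and 16119639 to 24009157 in WT. Libraries fell into close pairs: mutant 2 with 3, mutant 4 with 5, WT 1 with 2 and WT 3 with 4, with a biological coefficient of variation of 0.0371 to 0.0504 within these 4 pairs and 0.179 to 0.254 in the 12 remaining pairs within a genotype. The labels number each library as a mouse, and whether paired libraries share an animal was not tested. Each p-value treats the 9 libraries as independent, and results are also given with the close pairs summed, which leaves 3 mutant and 2 WT units. Markers of pancreatic acinar cells, a source of RNA outside the gut wall, summed to 0 to 0.825 CPM in mutants and 24053 to 52564 CPM in WT. The part of such tissue in the chemokine results was not tested. With acinar and immunoglobulin genes removed before the fit, which left 15288 genes tested, the calls of the 9 tested members were the same. This changes the scaling and the set of genes tested, and not the reads of the members.

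One epithelial chemokine, Ccl25, was higher in mutant duodenum, and 5 chemokines of immune cells or of the interferon response (Ccl5, Ccl6, Cxcl9, Cxcl10 and Cxcl13) were lower. The remaining 3 tested, Ccl28, Ccl20 and Cxcl16, were not called. A gene was called at an adjusted p under 0.05 from the quasi-likelihood test of edgeR, with Benjamini-Hochberg adjustment over all 15416 genes tested, and fold changes are mutant over WT on the log2 scale. Over all of these genes 15.4% were called higher and 17.1% lower, against 1 and 5 of the 9 members. The median fold change was -1.40 for the 9 members and 0.01 for all genes tested. With close pairs summed, Ccl6 and Cxcl9 were the members called lower. No member was then called higher by edgeR, with 1 at an unadjusted p under 0.05. DESeq2 was run only over 9 libraries taken as independent, where it called 1, as edgeR did, and it does not address the pairing.

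**Figure D1:**
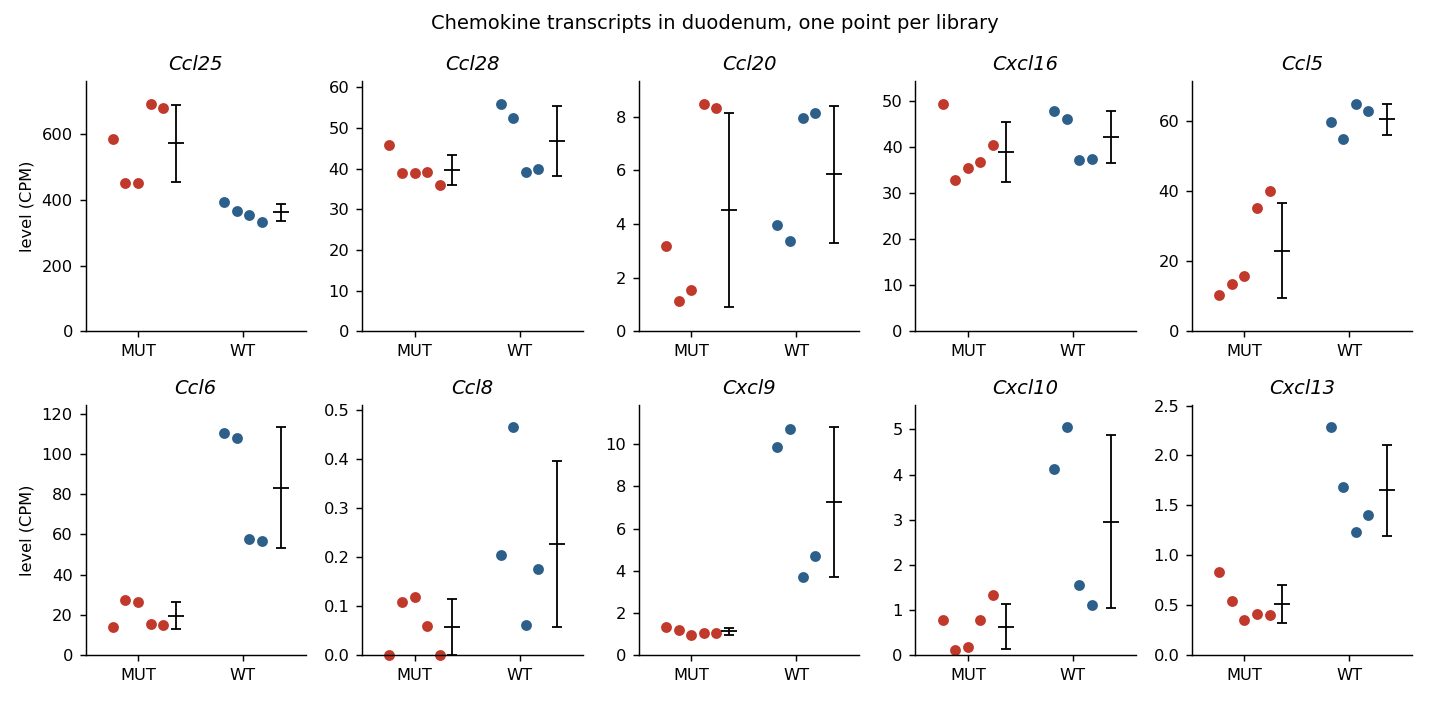
Level of each of the 10 chemokine transcripts in CPM (linear axes from 0). Each point is a library, in the order of its number, mutant (MUT) at the left and WT at the right, and the black bar is the mean with its SD (n = 5 and 4). Ccl25 is higher in all 5 mutant libraries, while Ccl5, Ccl6, Cxcl9 and Cxcl13 lie lower in mutants without overlap.

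Ccl25 (ENSMUSG00000023235, chromosome 8, 4325210 to 4360020, plus strand, GRCm38) was the most abundant member in CPM. Its level was 587, 453, 451, 693 and 680 CPM in mutants 1 to 5, against 394, 367, 354 and 334 CPM in WT 1 to 4. Every mutant library was above every WT library, and mutants 4 and 5 were the highest. The means were 573 ± 118 CPM in mutants and 362 ± 25.0 CPM in WT (SD, n = 5 and 4), a log2 fold change of 0.66 (SE 0.14, edgeR adjusted p = 0.0037). Summing close pairs ended the call, at 0.67 (edgeR adjusted p = 0.0709), as did leaving out WT 3 and 4, at 0.59 (0.0578). RefSeq lists an upstream and a downstream start for Ccl25, which the counts do not separate, and the gene overlaps Elavl1 on the other strand over 204 bases at its upstream end.

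Since Ccl25 was the member that rose, the 250 bases before the downstream start site (chr8:4349338-4349587, plus strand) are shown from RefSeq's promoter table of GRCm38.p6. Capitals mark the letters TTTATNG on either strand, a core of the site bound by the intestinal Cdx factors, which 9.81% of 32851 promoters of this length hold. Here the match, 17 bases before the start, also spells the TATAAA of a TATA box.

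Ccl25: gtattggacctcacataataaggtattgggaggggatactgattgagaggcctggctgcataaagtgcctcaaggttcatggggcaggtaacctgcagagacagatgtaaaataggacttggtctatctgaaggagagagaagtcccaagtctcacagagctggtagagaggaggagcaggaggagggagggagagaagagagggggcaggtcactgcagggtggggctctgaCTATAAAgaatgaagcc

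The upstream Ccl25 promoter held none of the 4 motifs searched. Transcripts of the Cdx factors themselves averaged 169 CPM for Cdx1 and 201 CPM for Cdx2 in mutants, and 152 and 174 CPM in WT, with fold changes of 0.15 (SE 0.10) and 0.20 (SE 0.15) that were not called.

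Ccl28 (chromosome 13, 119623819 to 119654359, plus strand) did not move with Ccl25. Its level was 45.8, 39.0, 38.9, 39.1 and 35.9 CPM in mutants 1 to 5, and 56.0, 52.5, 39.2 and 39.9 CPM in WT 1 to 4. WT 3 and 4 lay within the mutant range and WT 1 and 2 above it. The fold change was -0.24 (SE 0.12, edgeR adjusted p = 0.14), and -0.45 (0.0117) without WT 3 and 4, which made it a call.

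Cxcl16 (chromosome 11, 70453983 to 70459984, minus strand) encodes a chemokine that is made as a membrane protein and can be shed from it by ADAM10. It held 49.5, 32.8, 35.5, 36.8 and 40.4 CPM in mutants 1 to 5, and 47.9, 46.2, 37.2 and 37.4 CPM in WT 1 to 4. The groups overlapped, and mutant 1 was the highest of all 9 libraries. A fold change of -0.11 resulted (SE 0.12, edgeR adjusted p = 0.52). Cxcl16 overlaps Zmynd15 on the other strand over 552 bases, and reads of the overlap cannot be assigned to a strand.

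Ccl20 (chromosome 1, 83116766 to 83119167, plus strand), which attracts cells with CCR6 to the epithelium over lymphoid follicles, split by close pair and not by genotype. It held 3.18, 1.13, 1.54, 8.48 and 8.31 CPM in mutants 1 to 5, and 3.95, 3.36, 7.96 and 8.13 CPM in WT 1 to 4. Mutants 4 and 5 stood with WT 3 and 4 at about 8 CPM, and their mean was 6.30 times that of mutants 2 and 3. Its fold change was -0.36 (SE 0.60, edgeR adjusted p = 0.69). It became 0.30 without WT 3 and 4, and -1.59 (edgeR adjusted p = 0.0295) without mutants 4 and 5. Pdx1 was also lowest in mutants 2 and 3 and higher in mutants 4 and 5 than in mutants 1 to 3, and higher in WT 3 and 4 than in WT 1 and 2. In WT the acinar markers split the same way, averaging 24199 CPM in WT 1 and 2 and 52325 CPM in WT 3 and 4. Pdx1 in WT thus cannot be read as a measure of region alone. The parts of the duodenal region sampled and of pancreatic tissue in the Pdx1 and Ccl20 levels were not tested.

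Ratios within a library, which do not depend on scaling, set the epithelial members against each other and against Vil1, the villin gene of the enterocyte brush border. Vil1 itself averaged 2598 ± 332 CPM in mutants and 2310 ± 283 CPM in WT (SD, n = 5 and 4), a fold change of 0.17 (SE 0.12) that was not called. The log2 ratio of Ccl25 to Ccl28 was 3.81 ± 0.34 in mutants and 2.95 ± 0.18 in WT (SD, n = 5 and 4). It was higher in 5 of 5 mutant libraries (2-sided exact permutation p = 0.00794, the smallest 9 libraries can give; 0.0206 adjusted over the 13 ratios tested). Relative to Vil1, Ccl28 was lower by -0.39 and Cxcl16 by -0.29 in mutants (log2 differences), each in 5 of 5 libraries and with the same exact permutation p of 0.00794 (adjusted 0.0206). Ccl25 relative to Vil1 was higher by 0.47 (exact permutation p = 0.0317, adjusted 0.0687), and Ccl20 differed by -0.76 with overlap (exact permutation p = 0.29, adjusted 0.413). With close pairs as units no permutation p can go under 0.1, but the signs of all 4 Vil1 ratios were kept in each of 16 alternatives. The 8 enterocyte markers summed to 12945 to 16684 CPM in mutants and 13070 to 13538 CPM in WT, with 3 of 8 (Epcam, Cdh1 and Cdh17) called higher and a median fold change of 0.22. With close pairs summed edgeR called 0 of the enterocyte markers (3 at an unadjusted p under 0.05). DESeq2 over 9 libraries taken as independent called 3, as edgeR did there.

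**Figure D2:**
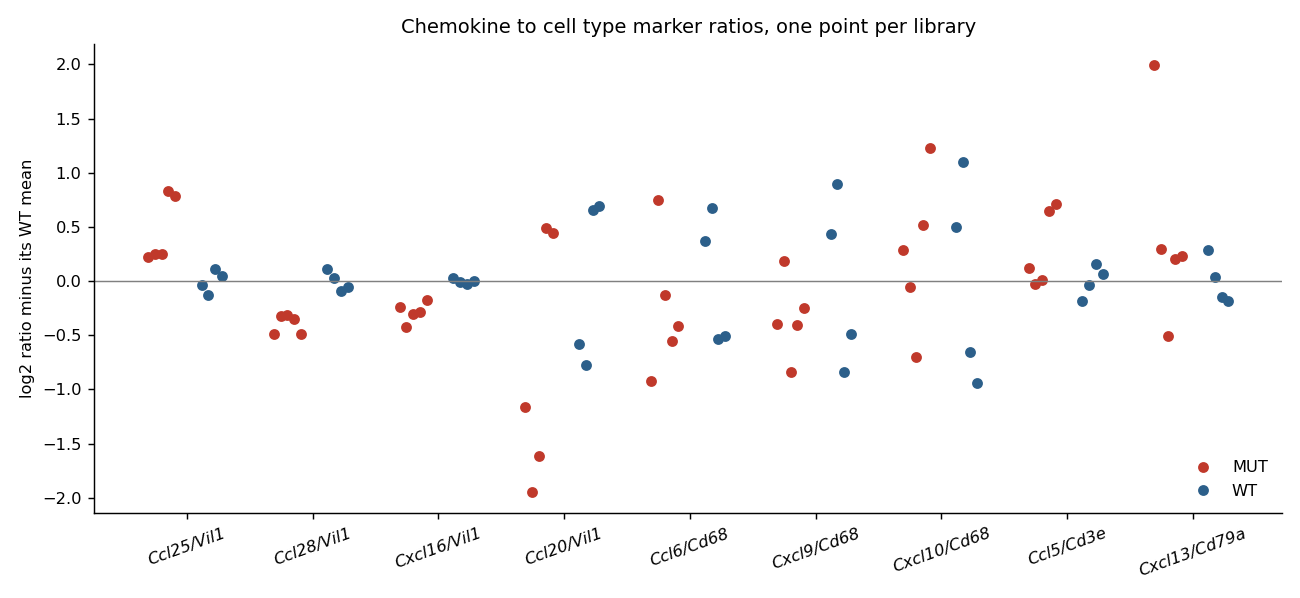
Log2 ratio of each chemokine to a marker of a cell type known to make it or to lie near it, minus the WT mean of that ratio, 1 point per library, mutant (MUT) left of WT, without the Ccl8 ratios. Ccl28/Vil1 and Cxcl16/Vil1 lie lower in mutants without overlap, while the ratios to Cd68, Cd3e and Cd79a overlap.

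Ccl5 and Ccl6 are neighbours on the minus strand of chromosome 11, at 83525778 to 83530518 and 83587882 to 83593087. Ccl5, which T cells and NK cells secrete, held 10.4, 13.6, 15.7, 35.2 and 40.0 CPM in mutants 1 to 5, against 59.8, 54.8, 64.9 and 63.0 CPM in WT 1 to 4. The groups did not overlap, and mutants 4 and 5 lay nearest to WT, at 2.56 times the mean of mutants 2 and 3. The means were 23.0 ± 13.6 CPM in mutants and 60.6 ± 4.41 CPM in WT (SD, n = 5 and 4), a fold change of -1.40 (SE 0.39, edgeR adjusted p = 0.0254). The call was lost in 10 of 23 alternatives: with close pairs summed (adjusted p = 0.22), without any 1 of WT 1 to 4 or mutant 3 (0.0510 to 0.0586), without WT 1 and 2 (0.0871), WT 3 and 4 (0.116) or mutants 2 and 3 (0.102), and with no filter (0.0725).

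The libraries mix cell types, and in such tissue fewer cells of a type cannot be told apart from less RNA per cell. The 11 T cell markers summed to 82.9, 90.3, 98.0, 233 and 239 CPM in mutants 1 to 5 and 297 to 336 CPM in WT, the same split of the mutants as for Ccl5. Most of that sum was Gzma and Gzmb, with means of 80.0 and 27.1 CPM in mutants and 133 and 64.8 CPM in WT. Cd8a split the same way, at 10.8, 9.73, 11.9, 22.4 and 23.3 CPM in mutants 1 to 5. Cd4 did not, at 0.509, 1.94, 1.12, 1.30 and 0.866 CPM, so the split does not hold for every T cell marker. Of 10 tested T cell markers 8 were lower, with a median fold change of -1.25, and none of the 11 was at 0 in either group. With close pairs summed 2 were called lower, and 4 without WT 1 and 2 or without WT 3 and 4. The log2 ratio of Ccl5 to Cd3e, a subunit of the T cell receptor complex, was 2.65 ± 0.36 in mutants and 2.35 ± 0.15 in WT (SD, n = 5 and 4), with overlap (exact permutation p = 0.23, adjusted 0.374). The part of T cell number in the Ccl5 result was not tested beyond these values.

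Ccl6, a chemokine of macrophages and other myeloid cells, held 13.9, 27.4, 26.1, 15.4 and 14.9 CPM in mutants 1 to 5, against 110, 108, 57.9 and 56.8 CPM in WT 1 to 4. Every mutant library lay below every WT library, and WT 1 and 2 averaged 1.91 times WT 3 and 4. The means were 19.5 ± 6.62 CPM in mutants and 83.3 ± 30.0 CPM in WT (SD, n = 5 and 4). The fold change of -2.09 (SE 0.30, edgeR adjusted p = 0.00096) stayed called with close pairs summed (0.0367) and in the other 22 alternatives. Ccl6 lies within the span of the noncoding gene E230016K23Rik on the other strand, which held 23 reads in all 9 libraries together.

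Ccl8 (chromosome 11, 82115185 to 82116799, plus strand), a chemokine of tissue macrophages, was near the limit of detection. It had 0, 2, 2, 1 and 0 reads in mutants 1 to 5, and 5, 8, 1 and 3 reads in WT 1 to 4. Its read rate in mutants was 0.258 times that in WT, with a 95% exact Poisson interval of 0.0745 to 0.729 that covers counting error only. Fitted without the filter, it had an edgeR adjusted p of 0.20. Its ratios to Ccl6 and to Cd68 were higher in mutants, by 1.69 and 1.44 (log2 differences; exact permutation p = 0.00794 and adjusted 0.0206 for each), but at these levels they are set largely by the 0.5 CPM added to both genes: with 0.1 CPM added, they were 1.08 and 1.12.

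**Figure D3:**
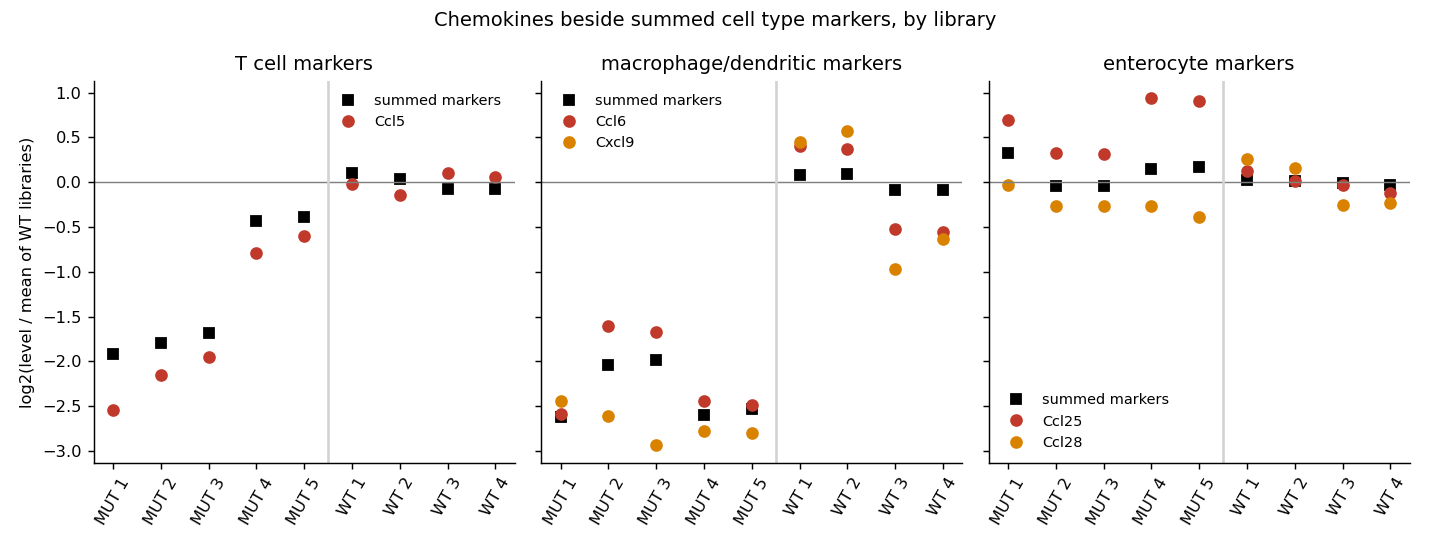
Log2 of each level over the mean of the WT libraries, by library, for summed markers of a cell type (black squares) and for chemokines (coloured circles, named in each panel). In the left panel Ccl5 and the summed T cell markers, mostly Gzma and Gzmb, are both less reduced in mutants 4 and 5. In the middle panel Ccl6 and Cxcl9 differ between the WT pairs more than the macrophage and dendritic cell markers do. In the right panel Ccl25 is above its WT mean in all mutants.

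Cxcl9 and Cxcl10, which interferon gamma induces and which both bind CXCR3 on activated T cells, lie near each other on the minus strand of chromosome 5, at 92321347 to 92328079 and 92346638 to 92348889. Because both were called lower, the 250 bases before each start site are shown (RefSeq, GRCm38.p6, minus strand, chr5:92328080-92328329 for Cxcl9 and chr5:92348890-92349139 for Cxcl10). Capitals mark matches on either strand to the interferon stimulated response element (GAAA, 2 free bases and GAAA), the NF-kappaB site (GGG, 5 free bases and CC) and the Cdx letters.

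Cxcl9: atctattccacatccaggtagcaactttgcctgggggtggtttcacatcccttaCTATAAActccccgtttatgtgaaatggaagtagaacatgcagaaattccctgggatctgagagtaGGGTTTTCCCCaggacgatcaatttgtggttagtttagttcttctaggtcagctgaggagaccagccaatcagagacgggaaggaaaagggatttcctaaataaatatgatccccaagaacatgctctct

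Cxcl10: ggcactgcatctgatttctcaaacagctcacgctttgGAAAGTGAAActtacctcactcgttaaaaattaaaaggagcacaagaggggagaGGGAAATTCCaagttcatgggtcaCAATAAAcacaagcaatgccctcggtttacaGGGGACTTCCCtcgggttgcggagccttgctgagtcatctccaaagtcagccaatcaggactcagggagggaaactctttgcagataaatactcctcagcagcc

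The Cxcl10 window held 1 match to the interferon element, 213 bases before the start, which 2.98% of promoters hold. The NF-kappaB letters matched at 3 positions in Cxcl10 and 2 in Cxcl9, with overlapping matches in each, and 45.8% of promoters hold at least 1. The gamma activated site TTCNNNGAA, found in 7.02% of promoters, had no match in either window.

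Cxcl9 held 1.34, 1.18, 0.945, 1.06 and 1.04 CPM in mutants 1 to 5 (16 to 22 reads), against 9.86, 10.7, 3.70 and 4.68 CPM in WT 1 to 4 (60 to 242 reads). No mutant library reached the lowest WT library, and the mutant levels were close to each other while the WT pairs stood 2.46 times apart. Its fold change was -2.70 (SE 0.33, edgeR adjusted p = 0.000124), and -2.65 (0.00924) with close pairs summed. It was called in all 23 alternatives, from -3.21 without WT 3 and 4 to -1.91 without WT 1 and 2.

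Cxcl10 held 0.764, 0.107, 0.177, 0.766 and 1.33 CPM in mutants 1 to 5 (2 to 23 reads), against 4.11, 5.04, 1.54 and 1.11 CPM in WT 1 to 4 (19 to 101 reads). Mutant 5 was above WT 4, so the groups overlapped, and WT 1 and 2 averaged 3.45 times WT 3 and 4. The fold change was -2.24 (SE 0.63, edgeR adjusted p = 0.0189). Without WT 1 and 2 it was -1.08 and no longer called (adjusted p = 0.30). The call was also lost with close pairs summed (0.14), without WT 1 (0.0536) or WT 2 (0.0593), without mutants 2 and 3 (0.0502), in voom with a random effect of the pair (0.0523) and with no filter (0.0583). Cxcl10 lies within the span of Art3 on the other strand, which held 764 reads in all, and the strand of reads is not known. The log2 ratio of Cxcl9 to Cxcl10 was 0.63 ± 0.67 in mutants and 1.23 ± 0.31 in WT, with overlap (SD, n = 5 and 4; exact permutation p = 0.14, adjusted 0.266).

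Cxcl13 (chromosome 5, 95956951 to 95961068, plus strand), which draws B cells into lymphoid follicles, held 0.828, 0.538, 0.355, 0.412 and 0.404 CPM in mutants 1 to 5 (6 to 13 reads), against 2.28, 1.68, 1.23 and 1.40 CPM in WT 1 to 4 (20 to 56 reads). The groups did not overlap, though mutant levels rest on few reads. Its fold change was -1.71 (SE 0.32, edgeR adjusted p = 0.00204), which was not called once close pairs were summed (0.0623).

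Across all genes tested, 16.5% had every mutant library below every WT library and 14.4% had every one above, against 4 and 1 of the 9 members. Cell type markers moved with these falls. The 12 macrophage and dendritic cell markers summed to 42.0 to 65.5 CPM in mutants and 243 to 275 CPM in WT, with 10 lower (Csf1r at -3.41, C1qb at -3.07), 1 higher (Itgam at 1.26) and a median fold change of -2.24. With close pairs summed 9 were called lower, and Itgam was not called. None of the 12 was at 0 in either group. Cd68, a macrophage marker, fell by 2.16 on the log2 scale (SE 0.24), to 1.18 ± 0.36 CPM in mutants, against 5.28 ± 0.60 CPM in WT (SD, n = 5 and 4). The ratios of Ccl6, Cxcl9 and Cxcl10 to Cd68 differed by -0.25, -0.34 and 0.26 on the log2 scale, with overlap (exact permutation p = 0.59, 0.41 and 0.635; adjusted p = 0.635, 0.537 and 0.635). These ratios hold for Cd68 alone, which had 13 to 27 reads per mutant library. Other markers of the list moved by other amounts, such as Csf1r at -3.41, Mrc1 at -1.36 (SE 0.15) and Cd14 at -0.01 (SE 0.29). Ratios to those markers were not tested. The B and plasma cell markers summed to 239 to 606 CPM in mutants and 1084 to 1263 CPM in WT. Most of that sum was Jchain, with means of 493 CPM in mutants and 1143 CPM in WT. Ms4a1 of the same list did not pass the filter and went the other way. It had 63 reads in mutants and 26 in WT, and its CPM was higher in every mutant library than in any WT library. All 4 tested were lower, against 1 with close pairs summed. Among them Cd79a, a subunit of the B cell receptor, was at -1.54 (SE 0.30) and not called with close pairs summed (edgeR adjusted p = 0.0659), and the ratio of Cxcl13 to it differed by 0.44 with overlap (exact permutation p = 0.51, adjusted 0.60). The follicular dendritic cell marker Cr2 had 3 reads in all mutants and 4 in all WT libraries, and the lymphoid stroma markers with it summed to 0.766 to 2.66 CPM in mutants and 3.39 to 4.89 CPM in WT. The part of cell numbers in the lower chemokines was not tested.

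**Figure D4:**
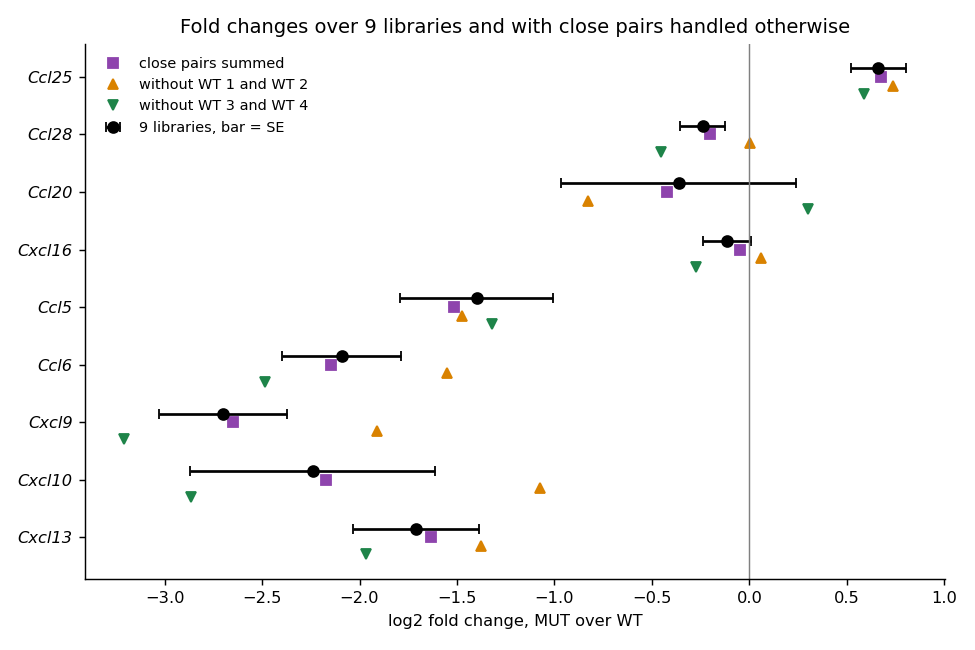
Log2 fold change, mutant over WT, of the 9 tested chemokines over 9 libraries (black circles, bar = SE), with close pairs summed (squares) and without each WT pair (triangles). Ccl25 lies above 0 in each fit and Ccl5, Ccl6, Cxcl9, Cxcl10 and Cxcl13 below, while Ccl20, Ccl28 and Cxcl16 change side with the WT pair left out.

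Per kilobase of gene model, the order of the members changed. In mutants it was Ccl25 (76.9 ± 15.8 CPM per kb), Ccl5 (23.9 ± 14.1), Cxcl16 (12.9 ± 2.14), Ccl6 (10.9 ± 3.69), Ccl28 (8.20 ± 0.759) and Ccl20 (3.19 ± 2.54), with Cxcl13, Cxcl9, Cxcl10 and Ccl8 under 0.5 (SD, n = 5). In WT the order was Ccl5 (63.2 ± 4.59 CPM per kb), Ccl25 (48.6 ± 3.36), Ccl6 (46.4 ± 16.7), Cxcl16 (14.0 ± 1.87), Ccl28 (9.68 ± 1.77) and Ccl20 (4.12 ± 1.79), with Cxcl9, Cxcl13, Cxcl10 and Ccl8 from 2.40 down to 0.443 (SD, n = 4). In mutants the library ranges overlapped between Ccl5 and Cxcl16, Ccl5 and Ccl6, Cxcl16 and Ccl6, and Ccl6 and Ccl28. Cxcl16 (10.9 to 16.4) lay above Ccl28 (7.40 to 9.46). In WT, Ccl6 (31.6 to 61.6 CPM per kb) overlapped both Ccl5 and Ccl25, and Ccl20 overlapped Cxcl9. Of the summed level per kb of the 10 members, Ccl25 made up 56.1% ± 3.50 in mutants and 25.5% ± 1.24 in WT, and Ccl5 16.5% ± 6.70 and 33.4% ± 5.58 (SD, n = 5 and 4). The Ccl25 length of 7445 bases includes the upstream transcripts, so its level per kb may be understated.

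Chemokine receptor genes were mostly lower. A list of 23 held receptors of these and of other chemokines. Of its 14 tested genes, 12 were lower and 1 higher, against 17.1% and 15.4% of all genes tested. The median fold change of the 14 was -1.90. Summed over the list, they took 19.4 to 29.4 CPM in mutants and 61.5 to 78.4 CPM in WT.

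Ccr9, the receptor for CCL25, was lower in mutants while its ligand was higher. It held 1.34, 2.74, 2.48, 3.65 and 2.83 CPM in mutants 1 to 5, against 10.1, 10.4, 10.2 and 9.82 CPM in WT 1 to 4. The fold change was -1.95 (SE 0.22, edgeR adjusted p = 7.4e-05), and it was called in all 23 alternatives. Ackr4, a scavenging receptor that takes up CCL25 without signalling, averaged 6.78 ± 2.32 CPM in mutants and 3.71 ± 1.03 CPM in WT (SD, n = 5 and 4), a fold change of 0.86 (SE 0.28, edgeR adjusted p = 0.0350). That call was lost in 11 of 23 alternatives, among them close pairs summed (0.16) and leaving out any 1 of mutants 1 to 3 or WT 2 to 4 (0.0502 to 0.0998).

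Ccr10, the receptor for CCL28 on plasma cells, was lower by -1.86 (SE 0.30) while Ccl28 was not called. Ccr3, an eosinophil receptor for CCL5 and CCL28, had 1 read in all mutant libraries together and 146 in WT (86, 42, 12 and 6), a rate ratio of 0.00601 with a 95% exact Poisson interval of 0.000151 to 0.0340 that covers counting error only and not the spread between the WT libraries. It did not pass the filter, and its adjusted p without the filter was 0.000133 by edgeR. Another list of eosinophil and mast cell markers (Siglecf, Epx, Prg2, Cpa3 and Kit) summed to 27.9 to 47.7 CPM in mutants and 21.9 to 28.1 CPM in WT. Most of that sum was Siglecf and Kit, with means of 22.8 and 15.4 CPM in mutants and 8.40 and 13.1 CPM in WT. Of 3 tested, Siglecf was higher at 1.43 (SE 0.17), Prg2 lower at -1.63 (SE 0.31) and Kit not called. With close pairs summed, 1 was called higher and 0 lower. Epx had 0 reads in mutants and 4 in WT. Siglecf held 29.9, 24.5, 23.0, 18.3 and 18.2 CPM in mutants 1 to 5. The summed tuft cell markers were also higher in mutants 1 to 3, at 215, 194, 198, 127 and 142 CPM in mutants 1 to 5. Which cells the Siglecf reads came from was not tested, so its rise cannot be read as one of eosinophils.

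Receptors of the myeloid and interferon-induced members fell with their ligands. Ccr1, for CCL5 and CCL6, was at -2.90 (SE 0.26), and Cxcr3, for CXCL9 and CXCL10, at -2.03 (SE 0.31). Both stayed called with close pairs summed. Cxcr6, the receptor for CXCL16, was at -2.03 (SE 0.22), while Cxcl16 was not called. Ccr8, for mouse CCL8, had 0 reads in mutants and 17 in WT, so it was at least 6.45-fold lower in mutants if 3 reads in their summed libraries are the floor, and its adjusted p without the filter was 0.00821 by edgeR. Ccr6, for CCL20, had 11 reads in mutants and 33 in WT, and Cxcr5, for CXCL13, had 16 and 3, and neither was called without the filter (edgeR adjusted p = 0.13 and 0.28). Of the other receptors, Cx3cr1 of macrophages was at -2.34 (SE 0.26), Cxcr4 at -1.86 (SE 0.23) and Ccrl2 at -1.73 (SE 0.27).

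**Figure D5:**
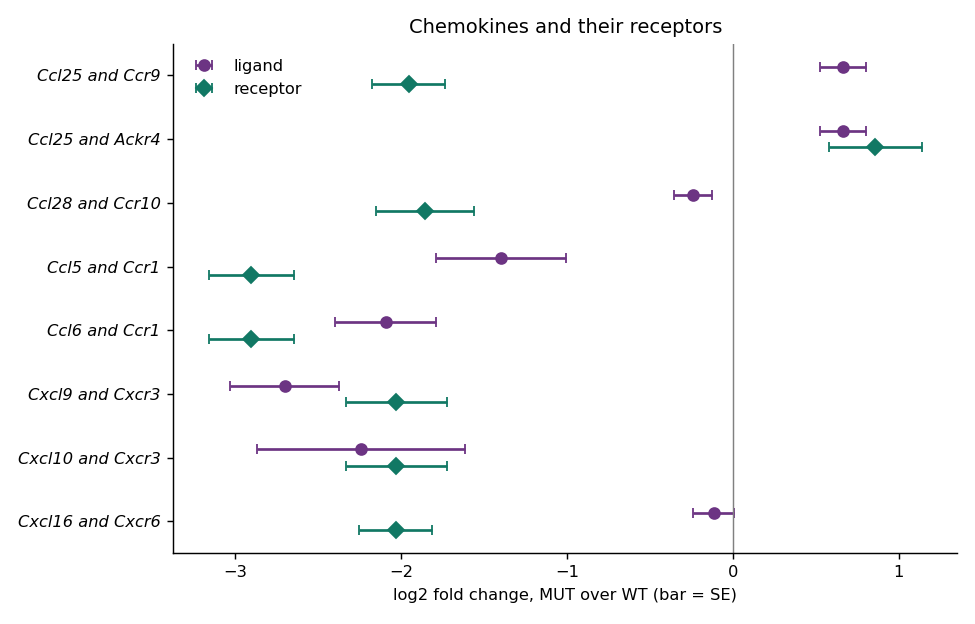
Log2 fold change, mutant over WT, with its SE for each chemokine (circles) and a receptor it is known to bind (diamonds), for pairs named in the text in which both passed the filter. Ccr9, Ccr10 and Cxcr6 lie near -2 beside Ccl25, Ccl28 and Cxcl16, which lie at 0.66, -0.24 and -0.11.

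Among 28 other chemokines, 11 were tested, and 8 were lower and 1 higher, with a median fold change of -2.06, against 5 lower with close pairs summed. The higher one was Cx3cl1, the membrane-bound ligand of CX3CR1, with 161, 137, 141, 137 and 141 CPM in mutants 1 to 5, against 119, 113, 83.3 and 82.7 CPM in WT 1 to 4. It rose by 0.53 on the log2 scale (SE 0.12, edgeR adjusted p = 0.00492), and at 0.0707 was not called once close pairs were summed. The lower ones included Cxcl14 at -2.59 (SE 0.18), Ccl22, which dendritic cells make, at -2.51 (SE 0.34), Cxcl12, a stromal chemokine, at -2.23 (SE 0.29), and the eosinophil attractant Ccl11 at -2.21 (SE 0.47). Ccl9 was at -1.63 (SE 0.30) and Ccl24 at -1.59 (SE 0.33). With close pairs summed, Ccl11 (edgeR adjusted p = 0.0889) and Ccl24 (0.0576) lost their calls. Ccl24 also lost it without WT 1 and 2 (0.0663). Fibroblast markers moved with the stromal members, at 48.5 to 132 CPM in mutants and 212 to 243 CPM in WT, with 5 of 6 lower and a median of -1.34. Without either WT pair 3 were called, and with close pairs summed edgeR called 0 (5 at an unadjusted p under 0.05). DESeq2 over 9 libraries taken as independent called 5, as edgeR did there. Transcripts of Cxcl11 averaged 3.45 CPM in mutants and 3.00 CPM in WT and were not called, at 0.19 (SE 0.28). Whether these mice make its protein was not tested.

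Of 24 genes that induce or process chemokines, 18 were tested, and 4 were higher and 3 lower. Ifng, the gene of interferon gamma, had 3 reads in all mutants and 4 in all WT libraries, too few to compare. Its receptor subunit Ifngr2 rose by 0.60 (SE 0.08), while Stat2, which carries the type I interferon signal, was at -0.48 (SE 0.13). Irf1 (-0.11, SE 0.11), which acts downstream of interferon gamma, was not called. The NF-kappaB genes Nfkb1 and Nfkb2 were at -0.31 (SE 0.06) and -0.63 (SE 0.15), and the lymphotoxin receptor gene Ltbr at 0.34 (SE 0.06). Dpp4, a brush border peptidase that trims the ends of several chemokines, was at 0.88 (SE 0.13), and Adam10 at 0.23 (SE 0.07). With close pairs summed, Stat2, Nfkb1, Nfkb2, Ltbr and Adam10 lost their calls (edgeR adjusted p from 0.0976 to 0.25), and Adam10 lost its call in 9 of 23 alternatives, among them leaving out mutant 1 (0.0561), WT 3 (0.104) or WT 4 (0.0966). Without WT 1 and 2, Stat2 (-0.24, 0.17) and Nfkb2 (-0.27, 0.0791) lost theirs.

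The genes nearest to each member in their pattern over the 9 libraries were found among 12636 genes that averaged 1 CPM or more, by the root mean square difference of centred log2 levels, and are given as a description. Cxcl9 was nearest to Gbp5 and Gbp2, which encode guanylate-binding proteins, at 0.26 and 0.27. Ccl6 was nearest to Habp2 (0.13) and Gbp2 (0.18), and Ccl5 to Il27ra (0.19) and the granzyme gene Gzmb (0.20). Cxcl10 had no close match, with Ifit1bl1 (0.43) and Irgm2 (0.44) nearest. Cxcl13 was nearest to Itpr1 and Csf1 (0.17 each). Ccl25 was nearest to Mocs2 and Tma7 (0.07 each), Ccl28 to Lrrc41 (0.05) and Eif2ak2 (0.07), Cxcl16 to Irf1 (0.06) and Gpc4 (0.07), and Ccl20 to Gsta4 (0.15) and Cyp2c66 (0.18).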

How the data were processed

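The deposited values are raw counts of reads per gene, not normalized, in 9 libraries. HISAT2 2.0.5 and featureCounts 1.5.0-p3 are named in the submitters' processing notes, and RNA was poly-T selected and primed with random hexamers, per the labels' protocols. Second strands were made with dTTP, so reads carry no strand. How shared reads were handled is not given. Of builds, the submitters' processing notes list mm39 beside the human GRCh37 and hg19, but 7 of the 9 member promoters in RefSeq's GRCm38.p6 table end where the deposited gene begins, so coordinates are taken as GRCm38. Gene length is the deposited table's own.

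Groups come from the sample titles. Counts were tested in R 4.3.3 with edgeR 4.0.16 (TMM, default filter, robust quasi-likelihood, genotype as the only term), and SE is the fold change over the square root of the test statistic. CPM (counts scaled to a fixed total) are on TMM-scaled sizes. Ratios use CPM plus 0.5 and a 2-sided exact permutation over 126 splits. Alternatives were other scalings and filters, DESeq2 1.42.0, voom of limma 3.58.1 with the close pair as a random block, close pairs summed, leaving out libraries or pairs, and the mouse number as a block. The numbers did not pair the genotypes (correlations of deviations from -0.14 to 0.14). The edgeR fit was tested on simulated counts of independent libraries, which hold no close pairs, so that test does not cover the pairing seen here.

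Members and lists were chosen with earlier results of these data known. Named genes were the members, their receptors, the ratio markers, at most 8 called genes per list with a mean of at least 1 CPM, and the 2 nearest genes per member. Of duplicated symbols, the row with most reads was used. Csf1r, C1qb, Itgam, Cr2, Epcam, Cdh1, Cdh17, Pdx1, Cdx1, Cdx2, Irf1, Ifng and Cxcl11 were named after their values were seen. So were Siglecf, Kit, Prg2, Epx, Gp2, Spib, Jchain, Ms4a1, Gzma, Cd4, Cd8a, Mrc1 and Cd14. Some items of the lists are not reported here. Of the members, 8 had a promoter in the reference table. The table's total is its only depth measure, and 3 reads equal at most 0.186 CPM.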

Additional observations from a re-analysis of the deposited data

Results flagged for a closer look

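In 84 groups of libraries (42 named genes in each genotype), 6 held a library that stood apart from the rest of its genotype by Dixon's gap ratio (the gap to the nearest library over the whole range). The limits flag about 1 in 20 groups of independent, normally spread values. Libraries in close pairs and genes with mostly 0 reads are not such groups, so the rate expected here is not known. Vil1 was at 3188 CPM in mutant 1 and 2408 to 2500 CPM in the other mutants (gap ratio 0.882). Cx3cl1 was at 161 CPM in the same library and 137 to 141 CPM in the others (0.804). Ccl11 was at 13.2 CPM in WT 4 and 12.2 to 12.3 CPM in the other WT libraries (0.875). Cxcr5 was at 0.648 CPM in mutant 4 and 0 to 0.127 CPM in the other mutants (0.803), and in WT it had reads in WT 2 (0.174 CPM), with the other WT libraries at 0 (1.0). Ccr3 had its only mutant read in mutant 3 (0.0591 CPM), with the other mutants at 0 (1.0). No member of the chemokine set was among them.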

How the results depend on the processing

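Of the 9 tested members, Ccl6, Cxcl9 and Cxcl16 kept their side of the threshold in all 23 alternatives. Over all genes, 2369 were higher and 2634 lower, against 385 and 1173 with close pairs summed, 1172 and 1644 in voom with a random effect of the pair, 1451 higher without WT 3 and 4, and 1778 to 2280 higher and 2271 to 2609 lower without 1 library. Members called higher numbered 1, and 0 by edgeR with close pairs summed or without WT 3 and 4 (1 at an unadjusted p under 0.05 in each). DESeq2 was run only over all 9 libraries taken as independent, where it called 1. Members called lower numbered 5, against 2 with close pairs summed, 3 with no filter, without WT 1 and 2 or without mutants 2 and 3, and 3 to 5 without 1 library. With the replicate block, 1738 genes were higher and 2222 lower, and the member calls were the same, 1 and 5. Among named genes that were no members, Adam10 (0.0669) and Irgm2 (0.0971) also lost their calls under the block. Library size alone moved the median of all genes by -0.05 (log2), and the share of higher genes among the calls was 24.7% with close pairs summed. Of 13 ratios, Ccl6/Cd68, Cxcl9/Cd68 and Cxcl10/Cd68 changed sign in 2, 1 and 4 of 16 alternatives. The cause of these changes was not tested. Cxcl10, Cxcl13 and Ccl8 rest on few reads, which limits their precision.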

Other observations

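Other cell types of the duodenum moved too, and their part in the chemokine results was not tested. The tuft cell markers summed to 127 to 215 CPM in mutants and 54.7 to 68.1 CPM in WT, and all 4 tested of the 5 were higher, with a median log2 fold change of 1.70. The 5 goblet and Paneth markers summed to 448 to 843 CPM in mutants and 2410 to 3195 CPM in WT, and all 5 were lower, with a median of -1.83. Of the 7 endothelial markers, 6 were lower, with a median of -1.90, and the list summed to 31.6 to 62.8 CPM in mutants and 141 to 150 CPM in WT. Of the 3 markers of follicle epithelium and M cells, which make Ccl20, 2 were lower and 1 (Spib) was higher. The list summed to 34.9 to 59.9 CPM in mutants and 406 to 678 CPM in WT, and it includes Gp2, which pancreatic acinar cells also express. In WT the sum was mostly Gp2, at 379, 383, 654 and 633 CPM in WT 1 to 4, against a mean of 0.107 CPM in mutants. In mutants it was mostly Spib, at 57.2, 48.1, 51.9, 31.5 and 35.7 CPM in mutants 1 to 5. Like the summed tuft cell markers, Spib was higher in mutants 1 to 3 than in mutants 4 and 5. Which cells the Spib reads came from was not tested. The sums thus rest on different genes, and the part of acinar tissue in them was not tested.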
